A study of Mus musculus with 147 samples.

Results

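The Akr1b aldo-keto reductases of the mouse were followed in single kidney cells sorted for YFP. The family was taken as the 4 genes *Akr1b3*, *Akr1b7*, *Akr1b8* and *Akr1b10*, matched by symbol among the 35438 genes of the deposited tables, and all 4 were found. WT renin cells came from adult *Ren1c+/+ Ren1c-YFP* mice and *Renin null* cells from adult *Ren1c-/- Ren1c-YFP* mice, both on the C57BL/6 background. In both genotypes YFP was driven by the upstream regulatory sequence of *Ren1c*, so the sort selected cells in which that promoter was or had been active, whether or not the renin gene itself was intact. Each well of the capture device held a single cell, giving 51 WT wells and 96 *Renin null* wells, the latter sequenced as libraries YFP1 and YFP2 of 48 wells each.

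Aldo-keto reductases are cytosolic enzymes that use NADPH to turn aldehydes and ketones into alcohols. *Akr1b3* is aldose reductase, which converts glucose to sorbitol in the polyol pathway and makes sorbitol as an osmolyte in the inner medulla of the kidney. *Akr1b7* was first described in the vas deferens and the adrenal cortex, where it clears aldehydes made during steroid synthesis and takes part in prostaglandin F synthesis, and it serves as a marker of renin cells in the kidney. *Akr1b8* is a growth factor-induced member, and *Akr1b10* is a less studied aldehyde reductase.

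The 4 genes lie side by side on chromosome 6 of GRCm38, within 120.709 kb. In the GENCODE M21 annotation *Akr1b3* lies from 34302434 to 34317478 on the minus strand, *Akr1b8* from 34354119 to 34368463, *Akr1b10* from 34384218 to 34396950, and *Akr1b7* from 34412334 to 34423142, these 3 on the plus strand. Each main transcript has 10 exons and a coding sequence of 951 bases for 316 residues. At the same position of the coding sequence, *Akr1b7* and *Akr1b10* held the same base at 89.3% of positions, *Akr1b7* and *Akr1b8* at 84.9%, and *Akr1b7* and *Akr1b3* at 72.1%. The stretches below show what lets reads be assigned to a member. The first is the 60-base window of the coding sequence that differed most among the 4 genes, bases 352 to 411 counted from the A of the start codon, with the 39 positions that differed in capitals.
Akr1b7: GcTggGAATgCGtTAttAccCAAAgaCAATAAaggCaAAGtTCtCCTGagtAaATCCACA
Akr1b10: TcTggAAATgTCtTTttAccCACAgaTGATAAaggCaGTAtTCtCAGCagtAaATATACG
Akr1b8: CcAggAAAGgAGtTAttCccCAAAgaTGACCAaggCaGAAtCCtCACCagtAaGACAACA
Akr1b3: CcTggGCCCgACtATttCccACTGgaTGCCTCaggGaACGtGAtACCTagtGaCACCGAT
The window that differed least, bases 181 to 240, held 11 such positions.
Akr1b7: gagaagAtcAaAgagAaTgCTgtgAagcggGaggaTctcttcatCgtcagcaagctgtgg
Akr1b10: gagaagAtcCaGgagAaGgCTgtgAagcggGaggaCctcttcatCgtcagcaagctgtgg
Akr1b8: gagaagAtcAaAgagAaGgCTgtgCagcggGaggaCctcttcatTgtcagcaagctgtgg
Akr1b3: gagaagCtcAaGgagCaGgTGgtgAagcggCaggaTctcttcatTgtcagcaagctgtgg
Of the 31-base words in the main transcript, 10.1% were shared with another annotated gene for *Akr1b7*, 10.5% for *Akr1b8* and 14.4% for *Akr1b10*. For *Akr1b3* this share was 63.5%, because processed pseudogenes elsewhere in the genome copy its coding sequence almost without change. The closest copy was *Gm6644* on chromosome 1 (55444074 to 55445024, minus strand), which differed from *Akr1b3* at 3 of 951 bases, namely A536G, T630C and G841C (the *Akr1b3* base, its position from the start codon, the *Gm6644* base). The words centered on the first of them are shown with the differing base in capitals.
Akr1b3: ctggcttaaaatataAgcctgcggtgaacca
Gm6644: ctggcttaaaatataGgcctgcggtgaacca
Within the coding sequence only these 3 bases set *Akr1b3* and *Gm6644* apart, so the split of counts between them is uncertain.

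The genotype labels were checked on the deleted gene, and the RNA of the sort marker was read beside it. *Ren1*, which encodes renin, was at 563 CPM in the lowest WT well, 21402 CPM in the median well and 313965 CPM in the highest, where CPM is counts per 1000000 counts of the well. In *Renin null* wells it was at 0 in the median well and 12.5 CPM in the highest. No well of one genotype reached the range of the other. *EYFP* RNA was sparse in the median well of both genotypes, at 1.05 CPM for WT and 6.80 CPM for *Renin null*, although all cells had been sorted for the protein. It reached 100 CPM in 6 WT wells and 27 *Renin null* wells. Summed over wells it was at 317 and 1169 CPM, with 63.3% of the *Renin null* counts in KO well 18, at 34659 CPM.

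Depth and quality set how far single wells can be read. WT wells held 26401 to 17124854 counts (median 1525972) and *Renin null* wells 3628 to 14505243 (median 4107950). In the median well the 13 mitochondrially encoded genes made up 60.4% of counts for WT but 12.4% for *Renin null*. Quality wells are those that reached 100000 counts and 1000 detected genes with a mitochondrial share of 25% or lower, which left 15 in WT and 57 in *Renin null*. Of the *Renin null* wells, 4 pairs had near-identical profiles (Pearson r of log2(CPM + 1) 0.974 to 0.987, against 0.896 for the next closest pair), namely KO wells 45 and 93, 46 and 94, 47 and 95, and 48 and 96. Their counts differed by more than counting error, but these 8 wells may hold 4 cells, and the main counts of wells below are given also with each pair counted once. The paper states that cells of several mice were used per genotype, with 1 capture for WT cells and 4 for *Renin null* cells. The labels name neither the mouse nor the capture of a well, and each genotype is therefore 1 sample. WT and *Renin null* cells were captured separately and sequenced in different libraries, so genotype, capture and library cannot be told apart. No test between genotypes was possible. Intervals of levels and ratios cover the counting error of reads alone. Reads were not collapsed by molecular identifier and PCR copies of 1 molecule count repeatedly, so these intervals are too narrow for the counting of molecules. Intervals of shares of wells cover the draw of wells from 1 sample and do not compare the genotypes.

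*Akr1b7* dominated the family in both genotypes. With counts summed over wells and divided by transcript length, it stood at 3535 CPM per kb in WT cells, against 38.1 for *Akr1b3* and 27.8 for *Akr1b10*, with a single *Akr1b8* count, and it made up 98.2% of the family's level per kb. In *Renin null* cells it stood at 1570 CPM per kb, against 107 for *Akr1b3*, 23.3 for *Akr1b8* and 4.44 for *Akr1b10*, and made up 92.1%. Among all genes with a count, ordered by summed counts, *Akr1b7* ranked 7 of 17034 for WT and 32 of 21992 for *Renin null* cells, and *Akr1b3* ranked 2755 and 1235. The order of *Akr1b8* and *Akr1b10* in *Renin null* cells rests on a single well: without the highest well of each, *Akr1b8* was at 0.28 CPM and *Akr1b10* at 3.29 CPM. Within wells, *Akr1b7* was the member with the highest level per kb in 50 of 51 WT wells and in 86 of 96 *Renin null* wells (82 of 92 with pairs counted once). *Akr1b3* led in 1 WT well and in 8 *Renin null* wells.

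**Figure D1:**
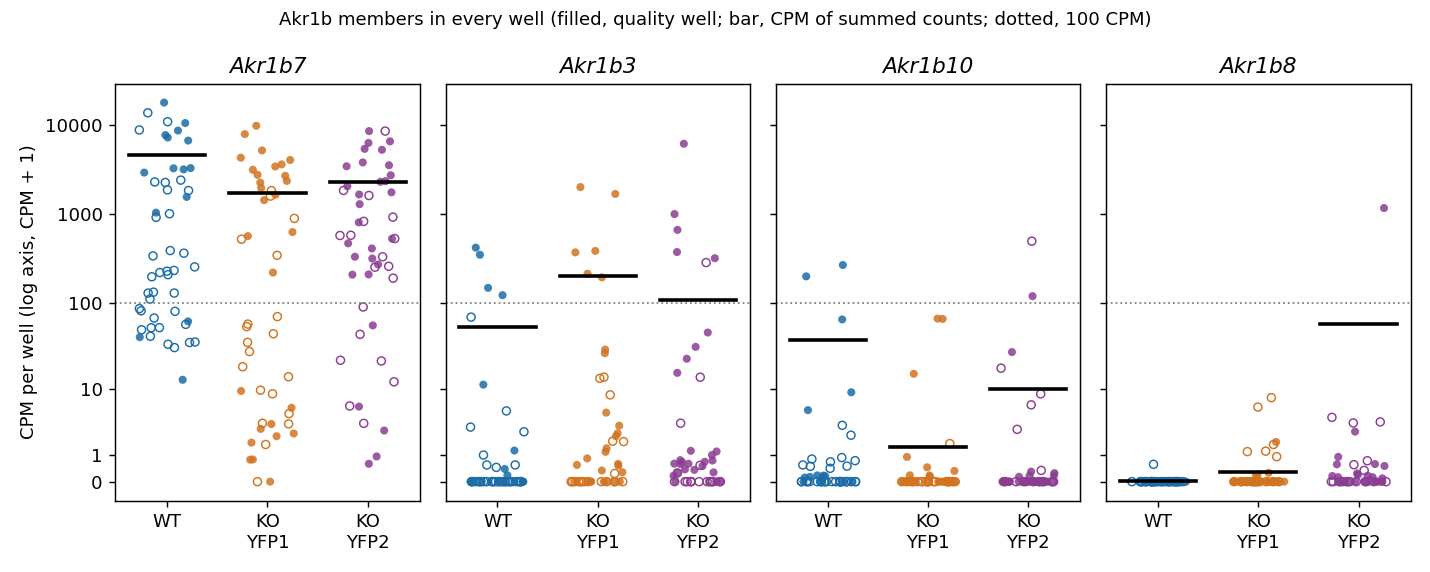
Level of each member in every well, as CPM on a log axis of CPM + 1, for the 51 WT wells and the *Renin null* (KO) wells of libraries YFP1 and YFP2 (48 each). Filled points are quality wells, open points other wells, black bars the CPM of summed counts, and the dotted line 100 CPM. Most wells hold *Akr1b7*. The bars of *Akr1b3*, those of *Akr1b10* in WT and YFP2 and that of *Akr1b8* in YFP2 sit above most of their wells. There a few wells hold most counts. The bars of *Akr1b10* in YFP1 and of *Akr1b8* in WT and YFP1 lie at 1.43 CPM or lower.

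*Akr1b7* was read from 12.8 to 17648 CPM across WT wells, with a median of 254 CPM, and from 0 to 9710 CPM across *Renin null* wells, with a median of 376 CPM. The genotypes overlapped over nearly their whole range. Summed over wells, the level was 4528 CPM in WT (896115 counts) against 2011 CPM in *Renin null* cells (802107 counts), a log2 ratio of -1.17 (95% interval -1.18 to -1.17). The sum was thus 2.25-fold lower in *Renin null* cells while the median well was higher, with a difference of 0.56 between the medians of log2(CPM + 1). Among quality wells the median ran the other way, at 3238 CPM for WT against 1425 CPM for *Renin null*, so the higher *Renin null* median is seen with the other wells included. A minority of WT wells set the WT sum: WT well 14 alone held 211366 counts, or 23.6% of them. The widest gap in the ordered WT counts ran from 2306 to 11625, and the 14 wells above it held 98.6% of *Akr1b7* counts in 65.6% of the depth. Not all of them were deep, with WT wells 38 and 49 at 1773135 and 1575309 counts in all. WT well 3, of 12067059 counts, held 155 of *Akr1b7*. *Renin null* counts were spread more evenly, with 8.97% in the highest well, KO well 21. Counting the 4 near-identical pairs once gave a ratio of -1.21, and the quality wells alone gave -1.34. Other settings fell short of 2-fold: mean CPM over wells and SCTransform corrected counts each gave -0.72, and thinning to 100000 counts -0.60. Leaving out the highest well of each genotype gave -0.98, and YFP2 alone -0.996.

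Every WT well held some *Akr1b7*. All 51 held at least 27 counts, and 35 reached 100 CPM (68.6%, exact 95% interval 54.1 to 80.9) which is the limit used below for a well that holds a member. The 16 WT wells under the limit held 27 to 399 counts, which rose with their depth (Spearman rho 0.88 over these 16 wells). This rho is set in part by the limit, because the wells were picked by their counts per depth. For *Renin null* wells under the limit it was 0.49 in YFP1 and 0.04 in YFP2. In *Renin null* cells 94 of 96 wells (90 of 92 with pairs counted once) held a count and 59 reached the limit (61.5%, 51.0 to 71.2), or 55 of 92 with pairs counted once, with 12 or 25 wells per library under it, holding 58 counts at most. Of the 59 wells inside the limit, 6 held fewer than 10 counts, the lowest 2, in wells of 15888 counts or fewer, while the lowest WT well inside held 49. The shares depended on the scale. Without mitochondrial counts 90.2% of WT wells (78.6 to 96.7) and 68.8% of *Renin null* wells (58.5 to 77.8) reached 100 CPM. After thinning to 100000 counts 100% (92.6 to 100) and 77.1% (66.6 to 85.6) held a count. The lowest *Renin null* well inside the limit was at 190 CPM and the highest outside at 89.6 CPM, and for WT these were 110 and 85.9 CPM. Whether the low counts of WT wells came from the cell in the well or from other wells was not tested.

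*Akr1b3*, aldose reductase, was at 0 CPM in the median WT well and 418 CPM in the highest, and at 0.36 CPM in the median *Renin null* well and 6099 CPM in the highest. Summed over wells it was at 52.8 CPM in WT (10446 counts) against 149 CPM in *Renin null* cells (59287 counts), a log2 ratio of 1.49 (1.46 to 1.52). The median ratio of the 18720 genes with more than 3 counts was itself 1.17, so *Akr1b3* stood 0.32 above the median gene, at percentile 54.5. It was higher in each library alone, by 1.92 in YFP1 and 1.01 in YFP2. At least 1 count was found in 16 WT wells and 56 *Renin null* wells (52 with pairs counted once), but 100 CPM was reached in 4 of 51 (7.84%, 2.18 to 18.9) and 12 of 96 (12.5%, 6.63 to 20.8). These intervals are over wells of 1 sample per genotype, so they do not decide whether the shares differ between genotypes. Of the 12 *Renin null* wells, 6 belonged to 3 of the near-identical pairs, and counting pairs once left 9 of 92 (9.78%, 4.57 to 17.8).

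*Akr1b10* went the same way as *Akr1b7* in the sums. It was at 0 CPM in the median well of both genotypes and reached 266 CPM in the highest WT well and 493 CPM in the highest *Renin null* well. Summed over wells it was at 38.1 CPM in WT (7537 counts) against 6.08 CPM in *Renin null* cells (2425 counts), a log2 ratio of -2.65 (-2.71 to -2.58). Only 2 wells of each genotype reached 100 CPM, and they held 88.3% of the WT counts and 79.1% of the *Renin null* counts. The share of wells that hold *Akr1b10* was 3.92% (0.478 to 13.5) in WT and 2.08% (0.253 to 7.32) in *Renin null* cells, with no test between genotypes. The ratio of sums rests on 2 wells of each genotype, at 266 and 198 CPM in WT and 493 and 119 CPM in *Renin null* cells. Its size and direction depended on how wells were combined: mean CPM over wells gave -0.34, SCTransform corrected counts -0.26, the medians 0, and thinning to 100000 counts, which left out 3 WT and 13 *Renin null* wells below that depth, gave 0.33 with an interval of -0.23 to 0.92 on both sides of 0.

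*Akr1b8* was a matter of 1 cell. WT wells held 1 count in all, in WT well 38, and 0 of 51 reached 100 CPM, which allows a share of up to 5.88% by the limit of 3 counts (exact upper bound 6.98%). *Renin null* wells held 12611 counts, of which 99.1% (12503) lay in KO well 89, at 1160 CPM. The next *Renin null* well was at 7.72 CPM. KO well 89 carried the 5 fibroblast genes (*Col1a1*, *Col1a2*, *Dcn*, *Lum* and *Pdgfra*) at 4550 CPM, the highest of the *Renin null* wells, and KO well 62, which held *Akr1b10*, carried them at 2000 CPM. Their part in the *Akr1b8* and *Akr1b10* values was not tested. The log2 ratio of sums, 12.61, has a counting interval of 10.13 to 17.92 around the single WT count, and without KO well 89 and WT well 38 it is 4.19, taken against a floor of 3 counts over the WT wells.

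Of the 4 members, in sums over wells, *Akr1b3* and *Akr1b8* were more than 2-fold higher in *Renin null* cells and *Akr1b7* and *Akr1b10* more than 2-fold lower. *Akr1b7* and *Akr1b10* fell short of 2-fold as mean CPM over wells (-0.72 and -0.34) and with SCTransform corrected counts (-0.72 and -0.26). Among all 18720 genes, 52.4% were past 2-fold higher and 18.5% past 2-fold lower, and with TMM factors these were 43.1% and 27.2%. With 4 genes that went both ways, nothing is read from the family's counts against these shares. Other scalings moved the median gene, from 1.17 to 0.47 with TMM factors, 0.33 with DESeq2 size factors and 1.01 without mitochondrial counts, and with TMM factors *Akr1b3* was 0.79 higher, short of 2-fold.

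**Figure D2:**
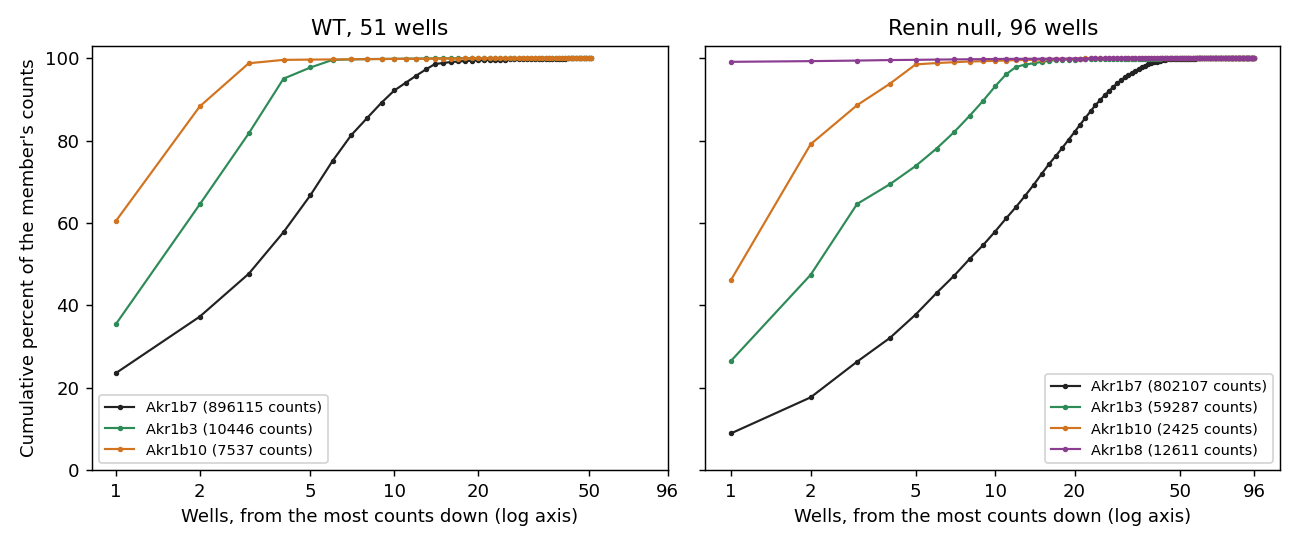
Cumulative percent of each member's counts against the number of wells, taken from the well with the most counts down (log axis), for WT and *Renin null* wells. *Akr1b8* is not drawn for WT, where it had 1 count. A single well held 99.1% of *Akr1b8* counts and 2 wells held 79.1% of *Akr1b10* counts in *Renin null* cells, while the highest well held 8.97% of *Akr1b7* counts.

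Members were then compared well by well, to see which go with *Akr1b7*. In WT cells, 3 of the 35 wells with *Akr1b7* at 100 CPM also held *Akr1b3* (8.57%, exact interval 1.80 to 23.1), against 1 of the other 16 (6.25%, 0.158 to 30.2). In *Renin null* cells, 9 of 59 did so (15.3%, 7.22 to 27.0), against 3 of 37 (8.11%, 1.70 to 21.9). Within quality wells the *Renin null* shares were 8 of 42 (19.0%) and 3 of 15 (20.0%). With pairs counted once they were 6 of 55 (10.9%) and 3 of 37 (8.11%) over all wells and 6 of 39 (15.4%) and 3 of 15 over quality wells. *Akr1b3* was thus found at similar shares with and without *Akr1b7*, and the intervals are wide. Rank correlation gave the same picture, with a Spearman rho of *Akr1b3* with *Akr1b7* of 0.05 over 15 WT quality wells and -0.07 over 57 *Renin null* quality wells, and -0.02 in YFP1 and -0.13 in YFP2 alone. These correlations are descriptions over cells that share libraries.

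*Akr1b10* and *Akr1b8* were found at 100 CPM in *Akr1b7* wells alone, although in very few of them. *Akr1b7* wells made up 35 of all 51 WT wells and 59 of all 96 *Renin null* wells. With so few cases beside these shares, no link between the members is read from it. Both WT wells and both *Renin null* wells with *Akr1b10* held *Akr1b7*, and so did the only well with *Akr1b8*. In the wells without *Akr1b7* neither was found at the limit, which at 0 of 16 WT wells and 0 of 37 *Renin null* wells allows shares of up to 18.8% and 8.11% by the limit of 3 counts (exact upper bounds 20.6% and 9.49%). Below the limit, KO well 43, a quality well with no *Akr1b7* count, held 127 *Akr1b10* counts at 65.5 CPM, and *Akr1b10* led the family there. The Spearman rho of *Akr1b10* with *Akr1b7* was 0.57 over the 15 WT quality wells and 0.26 over all 51. Of the 11 quality wells with an *Akr1b10* count, 7 held only 1 or 2. Among WT wells below the limit, 11 of the 13 that share a sequencing index with WT well 43 had an *Akr1b10* count, against 8 of the other 36, and the part of shared indices in the correlation was not tested. In *Renin null* quality wells rho was 0.10 over 57 wells, 16 with a count, and for *Akr1b8* it was 0.09, with 17 wells with a count.

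**Figure D3:**
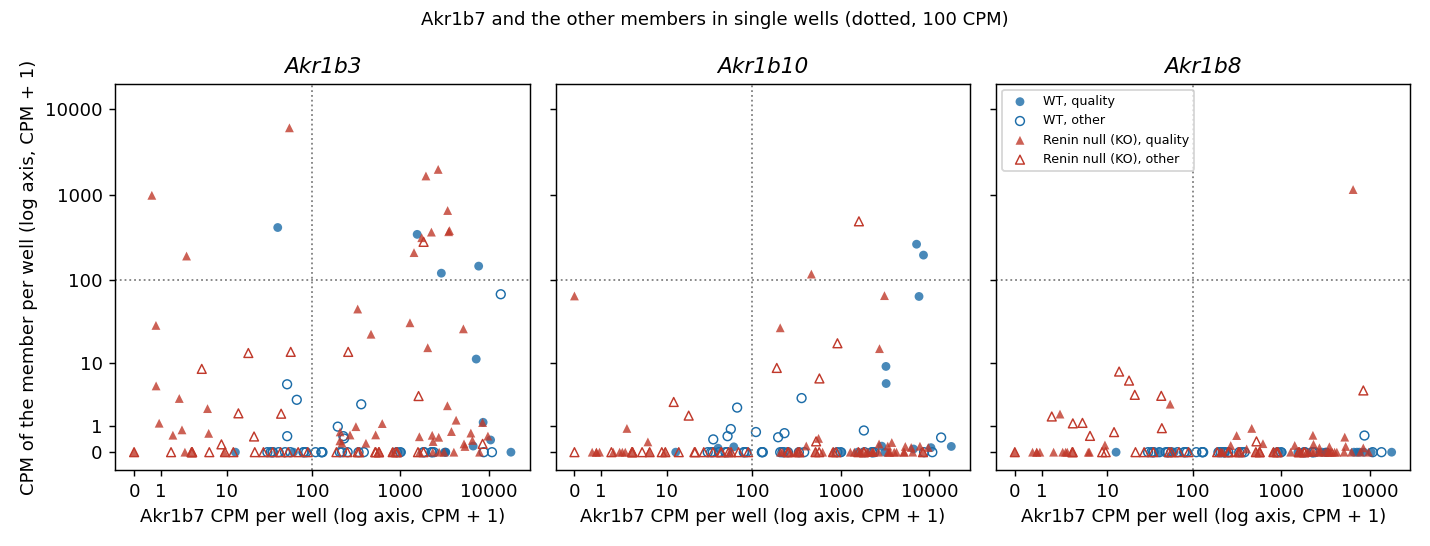
Level of *Akr1b3*, *Akr1b10* and *Akr1b8* against that of *Akr1b7* in the same well, both as CPM on log axes of CPM + 1, with WT wells as circles and *Renin null* wells as triangles, filled for quality wells. Dotted lines mark 100 CPM. In the *Akr1b3* panel, 1 WT well and 3 *Renin null* wells lie in the upper left, with *Akr1b3* and little *Akr1b7*, and the upper left of the other panels is empty.

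No well of either genotype held 2 of the 3 minor members at 100 CPM. A total of 6 WT wells and 15 *Renin null* wells (12 with pairs counted once) held a single one. *Akr1b3*, *Akr1b10* and *Akr1b8* reached the limit in 4, 2 and 0 of 51 WT wells. In *Renin null* cells these were 12, 2 and 1 of 96. So few wells leave little room for overlap, and its absence is not read as a result. WT well 10 had *Akr1b3* at 147 CPM and *Akr1b10* at 64.7 CPM. The Spearman rho of these 2 members in WT was 0.20 over quality wells and 0.50 over all wells. WT well 14, with 211366 *Akr1b7* counts, had 2 *Akr1b10* counts and none of *Akr1b3* or *Akr1b8*. KO well 21, with 71933 *Akr1b7* counts, had 4 *Akr1b3* counts, 1 *Akr1b10* count and none of *Akr1b8*. WT well 43, with 4561 *Akr1b10* counts, had 192 *Akr1b3* counts and none of *Akr1b8*, beside 122706 *Akr1b7* counts. KO well 6, the richest for *Akr1b3*, had 21113 *Akr1b7* counts beside its 15769 and none of *Akr1b10* or *Akr1b8*, and KO well 88, the richest for *Akr1b10*, had 3649 *Akr1b7* counts and 8 *Akr1b3* counts. WT well 33, with 3707 *Akr1b3* counts, had 360 *Akr1b7* counts and 1 *Akr1b10* count. KO well 89, with 12503 *Akr1b8* counts, had 4 *Akr1b3* counts and none of *Akr1b10*, beside 69936 *Akr1b7* counts. In WT well 14 and KO well 21, the wells with the most *Akr1b7*, the other members thus stayed at 4 counts or fewer.

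Counts assigned to the copy *Gm6644* lay almost wholly in 1 well. KO well 6 held 15769 *Akr1b3* counts and 9312 *Gm6644* counts, which were 99.8% of all *Gm6644* counts of *Renin null* cells, while WT cells held 1 count. The next richest *Akr1b3* well, KO well 3, held 12354 *Akr1b3* counts and 1 *Gm6644* count. With *Gm6644* added to *Akr1b3*, a setting chosen after the data were seen, the log2 ratio of *Akr1b3* was 1.70. Whether these counts came from the copy or from *Akr1b3* was not tested.

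The wells that held *Akr1b3* were of several kinds by their marker genes. The highest, KO well 56, had *Akr1b3* at 6099 CPM, *Akr1b7* at 55.3 CPM, 7 mural and smooth muscle genes (*Acta2*, *Tagln*, *Myh11*, *Cnn1*, *Pdgfrb*, *Notch3* and *Cspg4*) at 35010 CPM in sum and 5 fibroblast genes at 2947 CPM. KO well 59 had *Akr1b3* at 994 CPM, *Akr1b7* at 0.585 CPM and the mural genes at 54.7 CPM. It also had the highest sum of podocyte genes among the *Renin null* wells, a list whose values are not reported here. KO well 7 had *Akr1b3* at 194 CPM, *Akr1b7* at 2.90 CPM, the mural genes at 16.4 CPM and the fibroblast genes at 753 CPM. The 9 *Renin null* wells with both *Akr1b3* and *Akr1b7* carried the mural genes at 7595 CPM or more. Among them KO wells 48 and 96, a near-identical pair with 10121 and 11146 genes, also carried 6 collecting duct genes at 2511 and 1968 CPM and 10 proximal tubule genes at 3140 and 2306 CPM. The proximal tubule genes were also at 1076 and 1070 CPM in the pair of KO wells 45 and 93 and at 911 CPM in KO well 6. In WT, *Akr1b3* was highest in WT well 33, at 418 CPM, with *Akr1b7* at 40.6 CPM and *Ren1* at 674 CPM, among the lowest of WT wells. The other 3 WT wells with *Akr1b3* (347, 147 and 122 CPM) held *Akr1b7* at 1548, 7637 and 2899 CPM. WT well 10, at 147 CPM, had 10791 genes, with the proximal tubule genes at 314 CPM and the collecting duct genes at 305 CPM. In WT wells 33, 44 and 47 the proximal tubule genes were at 0.56, 0 and 0.44 CPM and the collecting duct genes at 0, 0.23 and 0 CPM.

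Tubule genes were weakly correlated with *Akr1b3* across *Renin null* quality wells, given here as a description. The Spearman rho of *Akr1b3* was 0.37 with the summed level of 5 loop and distal tubule genes and 0.35 with that of the 6 collecting duct genes, against -0.06 and -0.11 for *Akr1b7*, and 0.18 with the 10 proximal tubule genes. Over all 96 wells the values of *Akr1b3* for the 3 lists were 0.25, 0.11 and 0.13, against 0.09, 0.07 and 0.04 for *Akr1b7*. The proximal tubule genes summed to 28.9 CPM in WT, with *Slc5a2* at 0 and *Slc34a1* the most abundant at 7.96 CPM, and to 439 CPM in *Renin null* cells, all 10 detected and *Miox* the most abundant at 115 CPM. Over all *Renin null* wells the loop and distal tubule genes summed to 109 CPM (*Slc12a1* the most abundant at 79.8 CPM, *Pvalb* at 0) and in WT to 0.52 CPM (*Calb1* at 0.39 CPM, *Pvalb* at 0). The collecting duct genes, all 6 with a count in both genotypes, summed to 96.1 CPM and 40.1 CPM, with *Fxyd4* the most abundant at 49.1 and 20.6 CPM. Podocyte genes, whose values are not reported here, also had a higher sum in *Renin null* cells. Their correlation with *Akr1b3* was above those of the tubule lists over all 96 wells. Over quality wells it was below those of the loop and distal tubule and collecting duct genes. The part of tubule and podocyte RNA in the *Akr1b3* ratio was not tested. Endothelial genes summed to 30.8 CPM in WT (*Emcn* 24.9 CPM, *Cdh5* and *Plvap* at 0) and to 214 CPM in the *Renin null* wells (*Emcn* 161 CPM, all 5 detected). Macrophage genes summed to 1.42 CPM (*Ptprc* 0.92 CPM, *Lyz2*, *C1qa* and *C1qb* at 0) and 9.81 CPM (*Cd74* 6.16 CPM, *C1qb* at 0). The fibroblast genes, all 5 detected in both genotypes, summed to 171 CPM in WT (*Col1a2* 164 CPM) against 625 CPM in *Renin null* wells (*Col1a2* 352 CPM), with 1 and 12 wells at 1000 CPM or more. Leaving out the 1 WT well and 6 *Renin null* wells with over 9000 genes, a setting chosen after the data were seen, gave *Akr1b3* a log2 ratio of 1.67.

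*Akr1b7* wells were next described by other genes they held. In *Renin null* cells *Acta2*, smooth muscle actin, reached 100 CPM in 58 of the 59 wells with *Akr1b7* and in 15 of the other 37, and *EYFP* did so in 25 and 2. With pairs counted once these were 54 of 55 and 15 of 37 for *Acta2* and 21 and 2 for *EYFP*. In WT cells *Acta2* did so in 25 of 35 and 4 of 16 wells, and *EYFP* in 6 and 0. All 15 WT quality wells passed the limit for *Acta2*. Over these 15, *Akr1b7* went against the summed mural genes, with a Spearman rho of -0.71, but over all 51 WT wells the sign was the opposite, at 0.42. For *Renin null* cells rho was 0.24 over the 57 quality wells and 0.54 over all 96. The part of the *Ren1* share of a well in these values was not tested. The mural genes, all 7 detected in both genotypes, summed to 11478 CPM in WT (*Acta2* 4349 CPM) against 11922 CPM in *Renin null* cells (*Tagln* 5283 CPM).

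The genes whose level was most like that of *Akr1b7* were ordered by Spearman rho over quality wells, among genes with a count in at least 50% of them. In WT cells these were *Ren1* (0.90), *Mdk*, which encodes the growth factor midkine (0.87), *Rasal1*, a Ras GTPase-activating protein (0.81), *Thoc2*, a subunit of the mRNA export complex THO (0.80), and *Gm13857* (0.76), over 15 wells and 4971 genes whose median rho was -0.03. In *Renin null* cells they were *Mgp*, an inhibitor of calcification secreted into the matrix (0.69), *Col12a1*, a collagen chain (0.63), *Atp1b2*, a subunit of the sodium pump (0.58), *Fxyd1*, a regulator of that pump (0.54), and *Sncg*, gamma-synuclein (0.53), over 57 wells and 5254 genes whose median was -0.04. *Akr1b3* stood at place 1957 of 4971 for WT and 3086 of 5254 for *Renin null* cells. *Acta2* stood at place 4410 (rho -0.35) in the WT order and at place 127 (rho 0.30) in the other, but over all wells both were above 0, at 0.45 for WT and 0.59 for *Renin null*. The leading WT genes too were lower over all 51 wells, with *Ren1* at 0.53, *Mdk* at 0.48, *Rasal1* at 0.44, *Thoc2* at 0.29 and *Gm13857* at 0.47.

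The genes most like *Akr1b3* were others. In WT cells they were *Atg4b*, an autophagy protease (0.89), *Tomm34* (0.86), *St14*, the membrane protease matriptase (0.84), the autophagy gene *Becn1* (0.84) and *Cops6*, a subunit of the COP9 signalosome (0.84). In *Renin null* cells they were *Ganab*, a glucosidase of the endoplasmic reticulum (0.60), the DNA repair gene *Xrcc4* (0.60), the proteasome subunit *Psmb2* (0.56), *Stat3* (0.54) and the mitochondrial import gene *Timm23* (0.53). *Akr1b10* had a count in enough quality wells in WT alone, where *Cand1* (0.84), *Pgls* (0.84), *Thoc2* (0.83), *Specc1l* (0.82) and *Ano1* (0.82) led, *Ren1* was at place 65 (0.66) and *Akr1b7* at place 166. With 15 WT wells and 4971 genes, values of this size at the top of the order are descriptions. Over all wells the 5 leading genes were at 0.41 to 0.59 for *Akr1b3* and 0.27 to 0.76 for *Akr1b10* in WT, and at 0.34 to 0.57 for *Akr1b3* and 0.52 to 0.72 for *Akr1b7* among the *Renin null* wells.

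*Gm13857*, the fifth gene in the WT order, overlaps *Akr1b7*. It is annotated as a transcribed processed pseudogene from 34419396 to 34445436 on the opposite strand, and of its 2851 exon bases 348 lie in exons and 1394 in introns of *Akr1b7*. It was at 584 CPM in WT (115662 counts) against 93.8 CPM in *Renin null* cells (37418 counts), a log2 ratio of -2.64 (-2.66 to -2.62). All 7 WT wells and all 3 *Renin null* wells in which it reached 100 CPM held *Akr1b7* at the limit. Over all wells, 35 of 51 WT wells and 59 of 96 *Renin null* wells did so. Its counts came to 12.9% of the *Akr1b7* counts in WT against 4.66% in *Renin null* cells. The kit does not mark strand, so reads of *Akr1b7*, spliced or not, and of *Gm13857* cannot be told apart where they overlap. This gene was singled out after its values were seen.

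The promoters of *Akr1b7*, *Akr1b10* and *Akr1b8* were searched for motifs of known regulators of *Akr1b7* in the adrenal, with sequences from RefSeq on GRCm38.p6, and that of *Akr1b3* was not analysed here. The motif AAGGTCA of the nuclear receptor SF-1 (encoded by *Nr5a1*) was present on the minus strand of both the *Akr1b7* and the *Akr1b10* promoter, ending 214 and 180 bases before the annotated start of the gene, and absent from that of *Akr1b8*. On either strand it was present in 4.72% of 32851 promoters of 300 bases. The cAMP response element TGACGTCA and its core TGACGT, which the full element contains, were in none of the 3 and in 1.79% and 7.51% of all promoters. The bases before the annotated start are shown with the SF-1 motif in capitals, for *Akr1b7* chr6:34412112-34412333 and for *Akr1b10* chr6:34383997-34384217, both on the plus strand.
Akr1b7: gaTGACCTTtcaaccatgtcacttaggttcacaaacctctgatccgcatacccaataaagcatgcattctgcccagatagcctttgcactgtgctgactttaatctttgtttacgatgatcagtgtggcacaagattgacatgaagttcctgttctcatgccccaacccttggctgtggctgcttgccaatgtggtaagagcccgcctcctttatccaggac
Akr1b10: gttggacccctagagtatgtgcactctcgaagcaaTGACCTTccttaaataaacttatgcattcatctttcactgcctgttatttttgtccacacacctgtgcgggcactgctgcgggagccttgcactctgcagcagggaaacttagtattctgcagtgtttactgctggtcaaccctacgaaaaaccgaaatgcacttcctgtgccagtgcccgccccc
*Nr5a1* RNA was all but absent, with 3 counts over all WT wells and 1 over all *Renin null* wells. A match is a description of these letters and not a bound site.

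Of 6 regulators of *Akr1b7* known from the adrenal (*Nr5a1*, *Creb1*, *Crem*, *Cebpb*, *Nr1h2* and *Nr1h3*), 5 had more than 3 counts in a genotype, and their median log2 ratio was -1.05, against 1.17 for all genes. Past 2-fold, 2 were higher and 3 lower in *Renin null* cells, where 52.4% and 18.5% of all genes were. *Crem*, a modulator of the cAMP response, was at 37.5 CPM in WT against 102 CPM in *Renin null* cells (1.44, 1.40 to 1.48). *Creb1*, the factor that binds the cAMP response element, was at 92.2 and 41.6 CPM (-1.15, -1.18 to -1.12). *Nr1h2*, a liver X receptor, had the lowest ratio, -1.16, at 50.3 and 22.5 CPM. The other liver X receptor, *Nr1h3*, had the highest, 7.90 (5.42 to 13.21), against a single WT count. These genes too rested on few wells. Leaving out each gene's highest well of both genotypes, a setting chosen after the data were seen and used for the lists below as well, turned *Creb1* from -1.15 to 0.19 and *Cebpb*, a CCAAT-binding factor, from -1.05 to 1.16, and left 3 of the 5 past 2-fold higher and 1 lower, with a median of 1.16. Treated the same way, 62.7% of 16553 genes were past 2-fold higher, 11.1% lower, and the median was 1.84.

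The other aldo-keto reductases did not share 1 direction either. Of 16 genes, 11 had more than 3 counts in a genotype, 5 were past 2-fold higher, 4 lower and 2 between, with a median log2 ratio of 0.86, below the 1.17 of all genes, of which 52.4% were higher and 18.5% lower. *Akr1a1*, the aldehyde reductase found in most cells, was at 406 CPM in WT against 736 CPM in *Renin null* cells (0.86, 0.85 to 0.87). *Kcnab1*, a potassium channel subunit of the same fold, was at 443 and 185 CPM (-1.26, -1.28 to -1.25). The extremes were *Akr1e1*, from 0.35 to 25.0 CPM (6.16), and *Akr1c14*, from 2.30 to 0.09 CPM (-4.67). All 69 WT counts of *Akr1e1* lay in 1 well, and without the highest wells its ratio was 9.77. One WT well held 98.5% of the *Akr1c14* counts of WT and a single well all 36 of *Renin null*, and without the highest wells 6 genes of the list were past 2-fold higher and 2 lower, with a median of 1.85, against 62.7%, 11.1% and 1.84 for all genes so treated. *Akr1c18* and *Akr1c12* held 3 counts or fewer in both genotypes.

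In the polyol pathway and the osmolyte genes, the neighbors of aldose reductase, 7 of 8 genes had a ratio, with 3 past 2-fold higher, none lower and a median of 0.77, against 52.4% higher, 18.5% lower and a median of 1.17 over all genes. *Slc5a3*, the inositol transporter induced by hypertonicity, was at 1.22 CPM in WT against 262 CPM in *Renin null* cells (7.75, 7.57 to 7.94), with 12 *Renin null* wells and no WT well at 100 CPM. *Nfat5*, the factor that drives the response to hypertonicity, was at 233 and 399 CPM (0.77, 0.76 to 0.79) and *Slc6a6*, the taurine transporter, at 180 and 193 CPM (0.10, 0.08 to 0.11). *Khk*, ketohexokinase, had the lowest ratio (-0.38, -0.42 to -0.33), but 99.6% of its WT counts lay in 1 well. For *Slc5a3*, 94.6% of the WT counts lay in 1 well. Without the highest wells *Slc5a3* was at 11.44, *Khk* at 6.87 and *Nfat5* at 1.91, and 5 of the 7 were past 2-fold higher, as were 62.7% of all genes so treated. *Sord*, sorbitol dehydrogenase, which takes up the product of aldose reductase and was named after its value was seen, was at 55.5 and 91.3 CPM (0.72, 0.69 to 0.75).

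Genes of aldehyde clearance were past 2-fold higher in 10 of 14 cases and lower in none, with a median of 1.86, where 52.4% of all genes were past 2-fold higher, 18.5% lower, and the median was 1.17. Without the highest wells, 11 of the 12 with a ratio were higher and none lower, with a median of 2.77. For all genes so treated these were 62.7%, 11.1% and 1.84. *Aldh7a1* was at 444 CPM in WT against 1471 CPM in *Renin null* cells (1.73, 1.72 to 1.74), and *Adh1* at 35.5 and 140 CPM (1.98, 1.95 to 2.02). *Aldh1a2*, which makes retinoic acid, had no WT count and 33652 *Renin null* counts in which 8 wells reached 100 CPM, a log2 ratio of at least 12.44 against 3 counts over the WT wells. *Aldh3a2* had the lowest, -0.62 (-0.65 to -0.58), which turned to 0.25 without the highest wells. Of the 11 genes of prostaglandin synthesis and its F receptor, 8 were past 2-fold higher and 1 lower, with a median of 3.44, beside the same 52.4% and 18.5% of all genes. Without the highest wells, 6 of the 9 with a ratio were higher and 1 lower, with a median of 3.64. All genes so treated gave 62.7%, 11.1% and 1.84. *Ptges3*, a co-chaperone also known as a prostaglandin E synthase, was at 924 and 1579 CPM (0.77) and *Ptgis*, prostacyclin synthase, at 101 and 42.2 CPM (-1.26, the lowest). *Ptgs2*, the inducible cyclooxygenase, had no WT count and 21.4 CPM in *Renin null* cells, at least 10.46 higher, with 72.1% of the counts in 1 well. *Ptgfr*, the receptor for prostaglandin F2 alpha, had 41 and 44 counts.

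Enzymes and regulators of oxidative stress were past 2-fold higher in 6 of 8 cases and lower in 1, with a median of 2.49, again beside 52.4% and 18.5% of all genes. Without the highest wells, 7 of 8 were higher and 1 lower, with a median of 4.09, beside 62.7%, 11.1% and 1.84 for all genes. *Nfe2l2*, which encodes the regulator NRF2, was at 41.9 CPM in WT against 143 CPM in *Renin null* cells (1.77, 1.74 to 1.80), and *Gclm*, of glutathione synthesis, at 3.72 and 50.3 CPM (3.76, 3.65 to 3.87). *Gclc*, the partner of *Gclm*, had the highest ratio, 9.72 (8.59 to 11.16), and *Keap1*, the inhibitor of NRF2, the lowest, -4.54 (-4.77 to -4.32). Without the highest wells *Nfe2l2* was at 3.34, and a single well held 76.5% of its WT counts. In the lists, genes with no WT count were set to 3 counts, so their ratios in the medians are lower bounds.

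**Figure D4:**
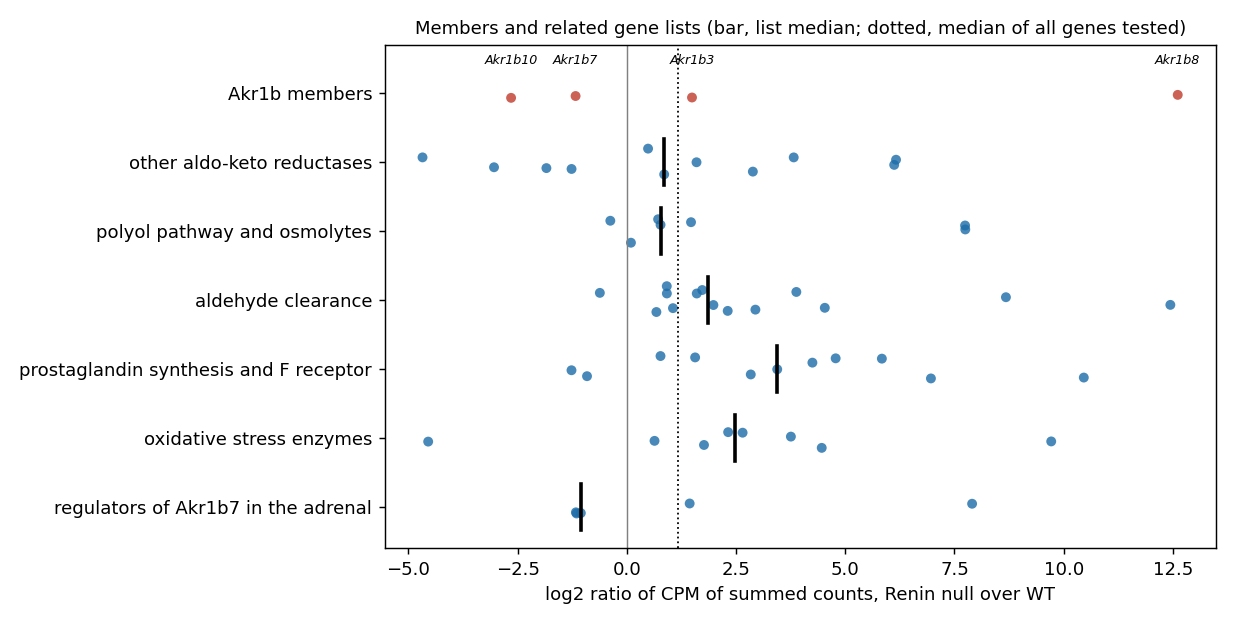
Log2 ratio of CPM of summed counts, *Renin null* over WT, for the 4 Akr1b members (red) and the genes of 6 related lists (blue), with list medians as black bars and the median of all genes tested (1.17) as a dotted line. Genes without a WT count are drawn at their lower bound. The members span -2.65 to 12.61, and the list medians lie from -1.05 to 3.44.

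**Figure D5:**
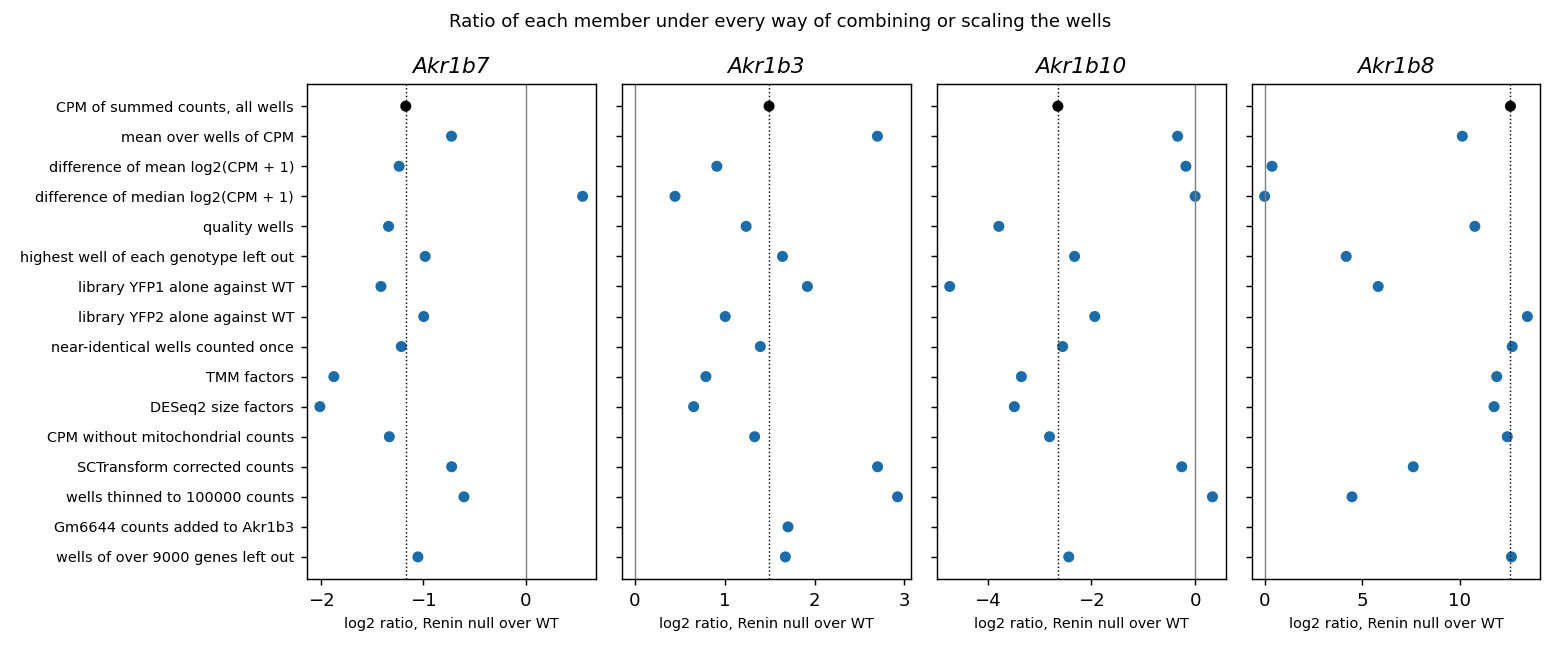
Log2 ratio of each member, *Renin null* over WT, under each way of combining, selecting or scaling the wells, with the main value in black. Each panel has its own axis. *Akr1b3* stays above 0 throughout (0.45 to 2.92), *Akr1b7* and *Akr1b10* cross or reach 0 under the setting with medians, and *Akr1b10* also after thinning.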

How the data were processed

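The authors trimmed reads (Trimmomatic 0.39), checked them (FastQC 0.11.5) and quantified them with Salmon 0.11.2 on GRCm38/ENSEMBL, with versions from the submitters' processing notes, and summed transcripts to genes with tximport (lengthScaledTPM). The deposited values are expected counts per gene and well, not normalized for depth. Here they were rounded to whole numbers per well, summed over the wells of a genotype and scaled to CPM. A genotype at 0 was set to 3 counts over the group, and a gene with 3 counts or fewer in both was given no ratio. Intervals of levels and ratios are exact Poisson and conditional binomial at 95% and cover the counting error of reads only. Intervals of shares of wells are Clopper-Pearson at 95% and cover the draw of wells only. Members, lists and markers were chosen with earlier results of these data known, and named genes were the members, the highest and lowest ratio and the 2 highest levels of each list, and the 5 genes most like a member. The functions were tested on simulated data. The authors' own comparison used SCTransform, tried here as an alternative. Tools were Python 3.11.15, scipy 1.17.1, R 4.3.3, edgeR 4.0.16, DESeq2 1.42.0 and Seurat 5.3.0. The 10x experiment was not analysed here, and 1 list of markers is not reported here. The markers of renin cells (*Ren1*, *EYFP*, *Akr1b7* and *Rgs5*) are not summed against *Akr1b7*, which they contain.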

Additional observations from a re-analysis of the deposited data

How the results depend on the processing

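Log2 ratios are given here in the order *Akr1b7*, *Akr1b3*, *Akr1b10* and, where it moved beyond its counting interval, *Akr1b8*. Mean CPM over wells gave -0.72, 2.70 and -0.34. Mean log2(CPM + 1) gave differences of -1.24, 0.91, -0.18 and 0.38, and its median gave 0.56, 0.45, 0 and 0, so that *Akr1b7* changed sign, though not among quality wells (medians of 3238 CPM for WT against 1425 CPM). Quality wells gave -1.34, 1.24 and -3.78, and leaving out the highest well of each genotype -0.98, 1.64, -2.32 and 4.19. YFP1 alone gave -1.41, 1.92, -4.73 and 5.83, YFP2 alone -0.996, 1.01 and -1.94, and near-identical wells counted once -1.21, 1.40 and -2.56. TMM factors gave -1.87, 0.79 and -3.35, DESeq2 size factors -2.01, 0.65 and -3.49, and CPM without mitochondrial counts -1.33, 1.33 and -2.81. SCTransform corrected counts gave -0.72, 2.70, -0.26 and 7.63. Thinning wells to 100000 counts gave -0.60, 2.92, 0.33 and 4.48, with 3 WT and 13 *Renin null* wells of lower depth left out, and the interval of *Akr1b10*, -0.23 to 0.92, included 0. Chosen after the data were seen, leaving out wells of over 9000 genes gave -1.05, 1.67 and -2.44, and adding *Gm6644* gave 1.70 for *Akr1b3*, and leaving out each list gene's highest wells turned *Khk* to 6.87, *Aldh3a2* to 0.25, *Creb1* to 0.19 and *Cebpb* to 1.16. *Akr1b3* was above 0 under all 15 alternatives and *Akr1b7* below 0 under 13 of 14. The cause of the sign changes was not tested.

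Among the correlations with *Akr1b7*, all wells gave 0.26 for *Akr1b10* in WT and 0.14 for *Akr1b3* in *Renin null* cells. For *Akr1b10* in *Renin null* cells, thinning gave -0.0744 and Pearson correlations of log2(CPM + 1) and log2(CPM + 10) gave -0.0578 and -0.0552. For *Akr1b8* YFP1 alone gave -0.21 and YFP2 alone 0.28. Of 52 alternatives for shares of wells, 32 stayed within the interval of the main share and 20 did not. No paired analysis was possible because each genotype is 1 sample and no result comes from a test. WT quality wells numbered 15, and all WT wells under 100 CPM still held *Akr1b7* counts, so both limit shares and correlations in WT cells. These counts rose with depth, in part because the wells were picked by counts per depth.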
